A study of Drosophila melanogaster with 12 samples.

Results

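Female *da-GAL4>UAS-bmm* flies (*bmm* overexpression) were compared with female *da-GAL4/+* flies (control) across all expressed genes. The comparison rests on 3 libraries of each genotype, 6 of the 12 libraries of the study, and the other 6 are males of the same genotypes. Each library was made from 20 pooled whole adults fed SY10/10, a sucrose and yeast food, which had 48 hours to mate before the sexes were separated. Both genotypes carry the *da-GAL4* driver, which is active in all tissues, and both lines had been backcrossed to *w1118* flies. Females that carry *UAS-bmm* without the driver were not sequenced, so an effect of the inserted transgene cannot be told apart from an effect of *bmm* overexpression. The age at which the flies were frozen is not given in the sources used here.

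*bmm* (*brummer*) encodes the main triglyceride lipase of the fly fat body, which releases fatty acids from stored fat. In a well-fed mated female a large part of the RNA comes from the ovary, where nurse cells supply the egg with ribosomes, mRNA and the enzymes of DNA replication, while the fat body makes yolk proteins, antimicrobial peptides and storage enzymes. The midgut secretes proteases, maltases and lysozymes behind a lining of chitin-binding peritrophins, and the Malpighian tubules clear solutes and toxins. RNA of whole flies mixes all of these, and in it fewer cells of a type and less RNA per cell cannot be told apart.

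The total count lay between 20068187 and 34514434 per library, with the lowest in *bmm* overexpression replicate 1, and a limit of detection of 3 counts corresponded to 0.0871 to 0.148 CPM (a gene's count scaled to a fixed library size, with the TMM factors of the female libraries). The libraries held the RNA of whole females. Muscle, photoreceptor and yolk genes were present in all 6, 8 of 38 testis genes passed the filter on low counts, and 59 accessory gland genes summed to between 1.34 and 2.12 CPM. *bmm* itself had 4568, 4533 and 4112 CPM in the overexpression libraries against 123, 118 and 133 CPM in the control libraries, so the labels held. *bmm*, *w* and the *Hsp70* copies were set aside from what follows.

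More genes passed the test as higher than as lower, while the median of all genes tested lay near 0. Rises over a log2 fold change of 1 included genes of the gut, of immunity and of small-molecule metabolism, and smaller falls included abundant genes of the ovary, of DNA replication and of protein synthesis, but most called genes were in none of the lists described here. Of 10488 genes tested, 128 (1.22%) were called higher in *bmm* overexpression females and 20 (0.191%) lower, at an adjusted p under 0.05 by edgeR's exact test (adjusted after Benjamini and Hochberg) with an absolute log2 fold change over 1. Setting aside *bmm*, *w*, *Hsp70Ba* and *Hsp70Bb* left 124 higher and 20 lower genes, and in 115 and 19 of them the libraries of the groups did not overlap. Of these, 44 higher and 7 lower genes were in any of the 63 gene lists used. Over all genes tested, 17.8% lay higher and 18.5% lower in all *bmm* overexpression libraries than in all controls. Of the 124 higher genes 35 had a mean under 1 CPM, 44 a mean over 10 CPM and 5 a mean over 100 CPM, namely *phu*, *CG42807*, *Alp2*, *CG8745* and *CG10912*. Of the 20 lower genes only *phr6-4* and *CG34215* had a mean over 10 CPM and none had a mean over 100 CPM. There were 116 protein-coding genes, 6 noncoding RNA genes and 2 pseudogenes among the higher ones, and 16, 3 and 1 among the lower.

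At the adjusted p alone, 1028 genes (9.8%) were higher and 463 (4.41%) lower, together 14.2% of those tested (the count past both thresholds was 1.41%). The shares of 9.8% and 4.41% are the ones that the counts of each gene list below are to be set against. The higher genes had a median log2 fold change of 0.49 and a median level of 20.6 CPM, and the lower genes a median of −0.21 and 91.8 CPM, against −0.01 and 31.9 CPM over all genes tested. Among the 2207 genes with a mean over 100 CPM the balance was turned round, with 148 higher and 219 lower. Both counts moved with single libraries, that of lower genes the more: leaving out any 1 library brought the latter to between 150 and 270 and the former to between 640 and 937, in both cases lowest without control replicate 2. No label states a pairing, but deviations from the group means correlated between libraries of the same replicate number. The main test did not use this. A fit with the replicate number as a block gave 948 lower and 1197 higher genes, so that 55.8% of its called genes were higher. These counts leave out the genes set aside, without which 1024 were higher. With scaling to the library size alone 79.1% of the called genes were higher, against 68.9% with TMM.

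**Figure D1:**
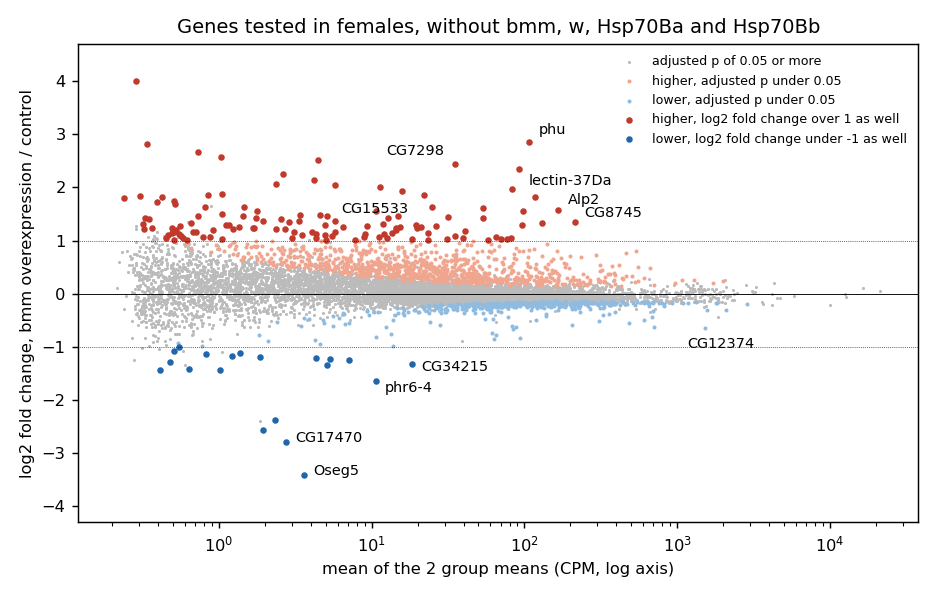
Each point is a gene tested in females, the x axis is the mean of the group means in CPM on a log axis, the y axis the log2 fold change of *bmm* overexpression over control, and dotted lines mark a log2 fold change of 1 and −1. Genes past both thresholds (124 higher in red, 20 lower in blue) reach farther above 0 than below it at high levels, while genes past the adjusted p alone are pale.

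Among the largest rises, several genes differed little between replicates. *CG15533*, which encodes an acid sphingomyelinase-like enzyme, had 31.9, 37.6 and 33.9 CPM in the *bmm* overexpression libraries against 8.66, 9.83 and 10.01 CPM in the controls. The lowest of the former lay far above the highest of the latter, and the log2 fold change was 1.86 (standard error 0.09, adjusted p = 2.49e-67, edgeR's exact test). *CG34040* was at 4.001, 3.98 and 5.06 CPM against 1.11, 0.914 and 0.704 CPM, a log2 fold change of 2.26 (standard error 0.21, adjusted p = 5.22e-21). *CG32284* was at 3.41, 4.91 and 3.09 CPM against 0.597, 1.10 and 1.04 CPM, a log2 fold change of 2.06 (standard error 0.27, adjusted p = 8.19e-11). The groups did not overlap for either gene, and *CG4363*, the next gene to *CG34040* on chromosome arm 2R with a gap of 678 bases, was also higher, with a log2 fold change of 1.25.

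The pair of peritrophin-like genes *CG7298* and *CG6933*, whose products carry chitin-binding domains, rose as well. *CG7298* was at 39.0, 65.2 and 73.3 CPM against 9.97, 8.85 and 14.1 CPM in controls (log2 fold change 2.43, standard error 0.23, adjusted p = 9.51e-22), and *CG6933* at 4.35, 7.46 and 10.9 CPM against 1.49, 0.756 and 1.74 CPM (2.51, standard error 0.36, adjusted p = 6.96e-10). In both genes replicate 1 was the lowest of the *bmm* overexpression libraries and still lay above every control. *Muc55B*, a mucin gene, was at 1.38, 1.45 and 2.09 CPM against 0.478, 0.504 and 0.367 CPM (1.88, standard error 0.27, adjusted p = 5.31e-08). Some of the largest fold changes came from few counts. *CG32198* had 9, 22 and 18 counts with *bmm* overexpression and 0, 1 and 2 counts in controls, a ratio of the summed counts of 18.2 with a 95% interval of 5.88 to 91.5 that covers counting error only. *CG17104* had 11, 23 and 19 counts against 3, 5 and 0, and *CG6012* had 26, 56 and 80 counts against 3, 12 and 14.

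Other risen genes varied between replicates, and in the same manner in both genotypes. *phu*, which had the largest rise of the 5 genes over 100 CPM, was at 130, 154 and 283 CPM in *bmm* overexpression replicates 1, 2 and 3 and at 21.2, 5.39 and 51.4 CPM in controls 1, 2 and 3 (log2 fold change 2.86, standard error 0.58, adjusted p = 0.000245, edgeR's exact test). *lectin-37Da*, a galactose-binding C-type lectin, was at 118, 101 and 246 CPM against 24.2, 13.3 and 54.0 CPM (2.35, standard error 0.47, adjusted p = 4.28e-05). *CG14499* was at 91.2, 98.8 and 204 CPM against 27.3, 11.6 and 61.5 CPM (1.97, standard error 0.50, adjusted p = 0.00241). Replicate 3 was the highest library of each genotype and control 2 the lowest of all 6 for each of these genes, and no *bmm* overexpression library overlapped the controls.

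Replicate 3 was also the highest of each genotype in *Acbp6*, an acyl-CoA binding protein gene (7.26, 5.46 and 15.1 CPM against 1.34, 0.756 and 4.65 CPM), in *LysX*, a lysozyme gene (49.8, 50.2 and 144 CPM against 21.0, 11.7 and 47.6 CPM), and in *CG15199* (15.7, 13.7 and 24.8 CPM against 4.09, 3.21 and 6.18 CPM). Replicate 3 was the highest library in both genotypes for 57 (46%) of the 124 higher genes, against 1433 (13.7%) of all genes tested. Standard errors of these genes were accordingly larger than those of *CG15533* or *CG34040*. The call of *Acbp6* was lost without *bmm* overexpression replicate 3, without control 1 or without control 2, and that of *LysX* without any of the same 3 libraries. Leaving out replicate 3 of both genotypes left 124 genes higher and 25 lower, 111 of them shared with the 144 of all libraries.

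**Figure D2:**
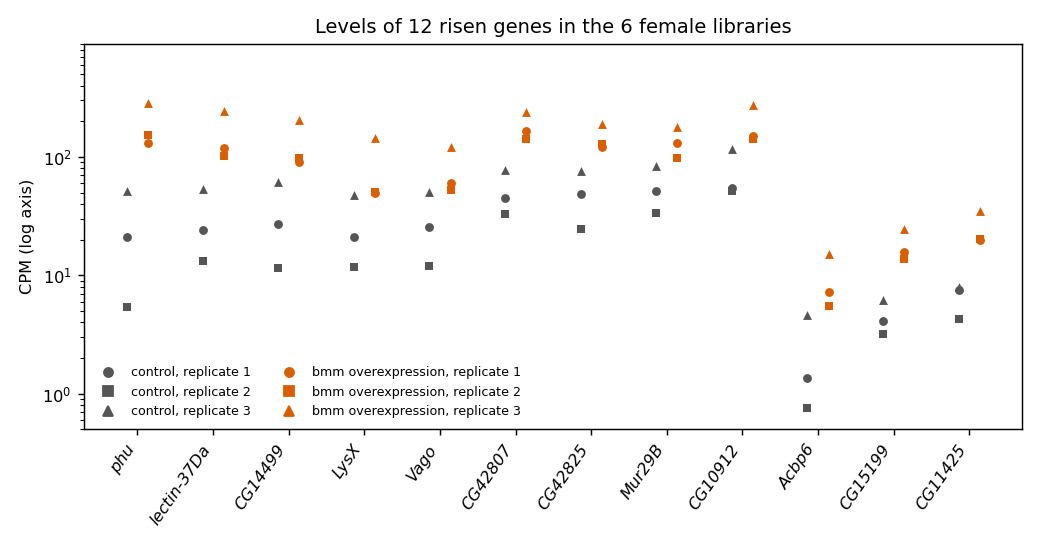
Level (CPM, log axis) of 12 risen genes in each female library, with marker shapes for replicates 1 to 3. The genes were picked because they moved with the replicate number, so their shared pattern follows from that choice. Replicate 3 is the highest of each genotype and control replicate 2 the lowest of all 6 libraries for all 12 genes, and every *bmm* overexpression point is above every control point of the same gene.

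Most maltases were higher, and most amylases were not called. Maltases split sucrose and maltose in the midgut, and 9 of the 10 tested were higher and none lower, with a median log2 fold change of 0.68 beside −0.01 over all genes tested. *Mal-A7* was at 93.6, 95.8 and 76.2 CPM against 42.8, 40.0 and 43.9 CPM in controls (log2 fold change 1.07, standard error 0.08, adjusted p = 8.95e-26). Its neighbour *Mal-A8*, 290 bases away on 2R, was at 50.7, 47.3 and 45.2 CPM against 20.5, 22.6 and 24.2 CPM (1.09, standard error 0.07, adjusted p = 1.73e-32). No library of one genotype reached the range of the other in either gene, and replicate 3 was the lowest *bmm* overexpression library for both. *Mal-B1* rose by 1.07, *Mal-A6* by 0.94 and *Mal-A1* by 0.73 on the log2 scale. The count of 9 was the same in every alternative fit, and with the replicate number as a block 1 maltase was lower. *Mal-A1*, *Mal-A6*, *Mal-A7* and *Mal-A8* lie close together, between positions 8449664 and 8473961 of 2R. Since the earlier results of these data had shown maltases higher, this is a description of the family and not independent evidence. Of 3 amylases, which split starch, 1 was higher (*Amyrel*, a call lost in 13 of the 16 alternatives that tested it, without any single library but *bmm* overexpression replicate 3 among them) and none lower (median −0.06), and *Amy-p* and *Amy-d* had log2 fold changes of −0.13 and −0.06 that did not pass.

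Other gut genes divided by function. Of 5 lysozymes tested 3 were higher (median log2 fold change 0.55), and of 18 chitin-binding peritrophins and mucins 8 were higher and 1 lower (median 0.30). *Mur29B* was at 132, 97.4 and 181 CPM against 51.8, 33.4 and 83.2 CPM (log2 fold change 1.29, standard error 0.30, adjusted p = 0.000618), and the more abundant *Mur18B* at 615, 645 and 693 CPM against 469, 434 and 485 CPM (0.49, standard error 0.06, adjusted p = 8.95e-11). The alkaline phosphatase gene *Alp2* was at 218, 224 and 308 CPM against 79.3, 65.1 and 107 CPM (1.58, standard error 0.18, adjusted p = 1.83e-15), with no overlap between genotypes for any of these 3 genes. *Alp7*, 411 bases from *Alp2* on 2R, was higher as well, with a log2 fold change of 1.74 from a level under 1 CPM. Higher levels were also found for *Npc2c* and *Npc2e*, sterol-binding proteins, with log2 fold changes of 1.05 and 1.07, and for *Sox21a*, a transcription factor of intestinal stem cells and their daughters, with 1.40 (adjusted p = 0.0238). The *Sox21a* call was lost without *bmm* overexpression replicate 2 or 3 or control 1 or 2. *Alp7*, the *Npc2* genes and *Sox21a* were chosen for mention after their values were seen.

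Among 32 midgut serine proteases 4 were higher (12.5%, near the 9.8% over all genes tested) and 3 lower (9.38%, against 4.41%), with a median of 0.03, and the median lay on either side of 0 across the alternatives, between −0.08 and 0.07. *Phae2* was at 26.7, 26.3 and 30.3 CPM against 11.02, 12.4 and 12.2 CPM (log2 fold change 1.23, standard error 0.08, adjusted p = 8.27e-32), and *kappaTry* rose by 0.57. *Jon25Biii*, one of the more abundant members, was at 501, 620 and 545 CPM against 808, 891 and 890 CPM (−0.63, standard error 0.08, adjusted p = 1.04e-11), and *Jon99Cii* at 530, 683 and 523 CPM against 830, 779 and 746 CPM (−0.44, standard error 0.09, adjusted p = 0.000444). *CG12374*, a carboxypeptidase gene, had the largest loss in CPM of the genes called, from 1736, 2060.1 and 1813 CPM in controls to 1189, 1425 and 961 CPM (−0.65, standard error 0.12, adjusted p = 2.08e-05). Every *bmm* overexpression library lay under every control for these 3 falling genes, while *Phae2*, *Alp2* and the maltases were higher in the same flies.

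Sugar transport and storage genes were higher in smaller steps. Of 28 sugar transporters 12 were higher and none lower (median 0.32). *CG6484* was at 55.7, 59.6 and 67.9 CPM against 27.5, 32.0 and 32.7 CPM (log2 fold change 0.99, standard error 0.09, adjusted p = 1.24e-20), *CG7882* rose by 0.82, and *Tret1-1*, the trehalose transporter, was at 218, 211 and 228 CPM against 150, 140 and 149 CPM (0.58, standard error 0.04, adjusted p = 1.24e-20). *Tps1*, which makes trehalose, the main blood sugar of flies, was at 811, 756 and 746 CPM against 543, 517 and 598 CPM (0.48, standard error 0.06, adjusted p = 1.05e-09). These 3 genes did not overlap between the genotypes. The glycolysis list was split, with 3 of 17 members higher (*Gpo1* 0.41, *Hex-C* 0.37 and *fbp*, the gluconeogenic fructose bisphosphatase, 0.33) and 2 lower, *Tpi* and *Pglym78* with −0.24 and −0.23. Those shares are 17.6% and 11.8%, against 9.8% and 4.41% over all genes tested. *Tpi* lost its call without *bmm* overexpression replicate 1, control 1 or control 2.

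Lipid genes other than *bmm* differed by small amounts. Among 30 genes of lipid storage and lipolysis 6 were higher (20%, against 9.8% over all genes tested) and 1 lower (3.33%, against 4.41%), with a median of 0.07. Among 41 genes of fatty acid oxidation 5 were higher (12.2%) and 1 lower (2.44%), near the share over all genes, with a median of 0.04. The perilipin gene *Lsd-1*, whose product coats lipid droplets and guards them from lipases, was at 176, 156 and 154 CPM against 125, 121 and 132 CPM (log2 fold change 0.36, standard error 0.06, adjusted p = 1.03e-05). *mdy*, which makes triglyceride from diacylglycerol, rose by 0.50 (adjusted p = 0.00143) and *Fatp1*, a fatty acid importer, by 0.35 (adjusted p = 2.21e-05). Synthesis genes showed 10 of 33 higher and 1 lower, the latter *FASN2* at −0.35, a call lost without control replicate 2. *Desat1*, the main fatty acid desaturase, had the largest gain in CPM of the genes called, at 2292, 2196 and 2013 CPM against 1857, 1717 and 1921 CPM (0.24, standard error 0.06, adjusted p = 0.0104). The genotypes did not overlap for *Desat1*, but the distance was short and the call was lost without control replicate 2.

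Enzymes acting on other lipids showed larger steps in single genes. Besides *CG15533*, the glucocerebrosidase genes *Gba1b* and *Gba1a*, whose products release glucose from glucosylceramide, rose by 1.05 (standard error 0.11, adjusted p = 1.09e-14) and 0.97 (standard error 0.17, adjusted p = 3.44e-06). *Gba1b* was at 18.7, 14.7 and 17.7 CPM against 8.33, 7.66 and 8.54 CPM, while *GlcT*, which makes glucosylceramide, fell by 0.26 (adjusted p = 0.00816). The *GlcT* call was lost without *bmm* overexpression replicate 1 or 2 or control 2. The sphingolipid list as a whole had 5 of 19 higher, 2 lower and a median of 0.01. *CG11425*, a lipid phosphate phosphatase gene, was at 20.0, 20.1 and 35.1 CPM against 7.53, 4.28 and 7.90 CPM (1.93, standard error 0.26, adjusted p = 2.21e-10). *CG18135*, a glycerophosphodiester phosphodiesterase gene, was at 674, 628 and 736 CPM against 423, 340 and 402 CPM (0.81, standard error 0.08, adjusted p = 4.6e-16). Of 29 secreted neutral lipases 5 were higher (17.2%, against 9.8% over all genes tested) and 2 lower (6.9%, against 4.41%). The rises of *CG31089* (1.86) and *CG7367* (1.83) were of genes with at most 1.68 CPM in any library. *mag* (*magro*), a gut lipase, fell by 0.60 (adjusted p = 0.0203), a call lost without control 1 or control 2.

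**Figure D3:**
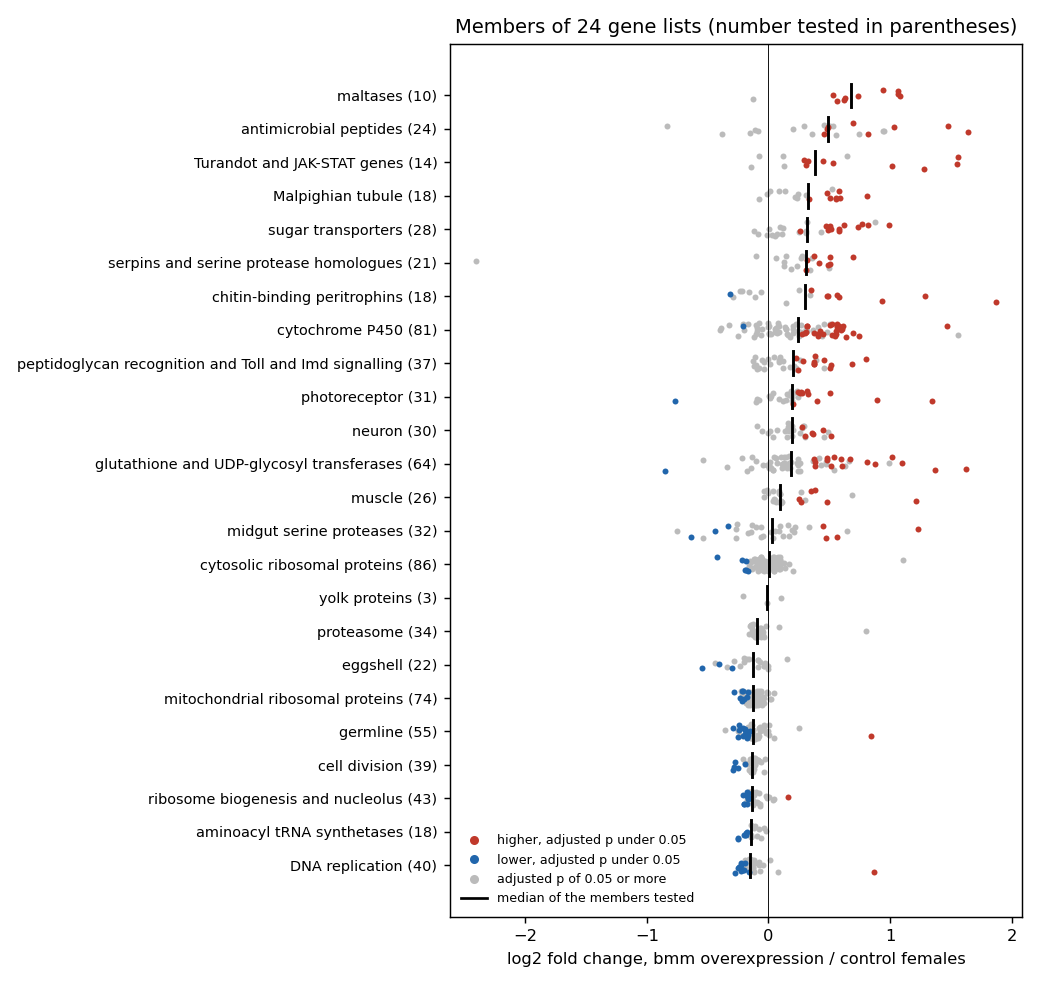
Log2 fold change of each tested member of 24 gene lists, ordered by the median (black bar), with members past an adjusted p of 0.05 in red (higher) or blue (lower). Maltases have the highest median, 0.68. Most members of the germline, replication and tRNA synthetase lists lie in narrow bands under 0, with medians of −0.13, −0.15 and −0.14. Over 0 lie 5 germline and 3 replication members, among them *tor* (0.85) and *PCNA2* (0.87).

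Immune genes were higher across several arms. Antimicrobial peptides are made by the fat body and gut through the Toll and Imd pathways, and 8 of 24 were higher and none lower, with a median of 0.49. *Def*, the defensin, was at 30.6, 46.8 and 35.2 CPM against 12.5, 13.3 and 10.3 CPM (log2 fold change 1.64, standard error 0.15, adjusted p = 1.22e-21). *CecA1*, a cecropin, was at 4.396, 6.82 and 3.70 CPM against 0.866, 3.09 and 1.41 CPM (1.48, standard error 0.39, adjusted p = 0.0072), and *IM2*, a small Toll-dependent blood peptide, was at 89.6, 111 and 110 CPM against 33.6, 69.7 and 48.7 CPM (1.03, standard error 0.21, adjusted p = 6.07e-05). The controls spread widely for *CecA1* and *IM2*, with control 2 the highest, yet remained under every *bmm* overexpression library. *IM3* and *IM4* rose by 0.82 and 0.69. The median of the list was 0.31 without control 1 and 0.90 without control 2, and the *CecA1* call was lost without *bmm* overexpression replicate 2 or control 3.

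Receptors and brakes of these pathways moved less. Of 37 recognition and signalling genes of Toll and Imd 12 were higher and none lower (median 0.20), among them *PGRP-SD* with 0.80, which promotes Imd signalling, *PGRP-LF* with 0.69, which restrains it, *PGRP-SA* with 0.51, a receptor upstream of Toll, and *nec* with 0.46, a serpin that restrains Toll. Serpins and protease homologues had 8 of 21 higher and none lower (median 0.31), for example *Spn43Ab* at 120, 133 and 128 CPM against 82.8, 85.5 and 100 CPM (log2 fold change 0.50, standard error 0.07, adjusted p = 1.27e-07). The count of higher serpins and homologues was 5 without control replicate 2 and 3 with the dispersion over all 12 libraries. *NimC1*, a phagocytosis receptor of blood cells, was at 10.3, 10.9 and 9.97 CPM against 5.17, 5.48 and 4.90 CPM (1.00, standard error 0.10, adjusted p = 1.06e-13), in a haemocyte list with 3 of 16 higher and a median of 0.12. The other 13 blood cell markers did not pass.

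Of 14 Turandot and JAK-STAT genes 9 were higher and none lower (median 0.39). *TotA*, *TotC* and *TotM* encode secreted proteins made under stress such as infection or heat, and *TotM* was at 24.4, 15.4 and 8.24 CPM against 5.44, 4.001 and 6.92 CPM (log2 fold change 1.55, standard error 0.35, adjusted p = 0.000195). *TotA* was at 120, 54.4 and 58.9 CPM against 49.1, 27.5 and 38.3 CPM (1.02, adjusted p = 0.0077), with replicate 1 the highest in both genotypes. *Diedel*, a secreted immune modulator, rose by 1.56 (adjusted p = 1.72e-05), and *Socs36E*, the feedback inhibitor of the pathway, was at 19.9, 19.6 and 20.2 CPM against 13.6, 13.04 and 14.7 CPM (0.53, standard error 0.07, adjusted p = 5.7e-07). *Vago* and *Nazo*, which restrict viruses, were higher with log2 fold changes of 1.42 (adjusted p = 0.0218) and 1.24 (adjusted p = 0.00127), and both were named after their values were seen. The *Vago* call was lost without *bmm* overexpression replicate 3, control 1 or control 2. The *TotA* call was lost without control 2, and that of *TotC* without control 2 or *bmm* overexpression replicate 1. Neither passed edgeR's quasi-likelihood test on all 6 libraries (adjusted p = 0.0534 and 0.0625).

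Genes that detoxify and excrete were higher in moderate steps. Of 81 cytochrome P450 genes 26 were higher and 1 lower (median 0.25), and of 64 glutathione and UDP-glycosyl transferases 16 were higher and 1 lower (median 0.18). Without control replicate 2 the counts of higher genes were 15 and 10. *Ugt37D1* was at 32.9, 30.3 and 30.8 CPM against 17.0, 15.6 and 13.8 CPM (log2 fold change 1.02, standard error 0.08, adjusted p = 5.39e-23), and *Ugt37C2*, a neighbouring gene 3015 bases away on 2L, was higher with 1.63. *Cyp28a5* rose by 0.75 (adjusted p = 3.08e-08), *Cyp4p1* by 0.64 (adjusted p = 1.55e-06) and *Cyp6a18* by 0.62 (adjusted p = 1.13e-10). The summed CPM of the P450 list overlapped between genotypes (6315 to 7028 against 6636 to 6727), so the rises of single members were not seen in the sum.

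Malpighian tubule genes showed 8 of 18 higher and none lower, with a median of 0.32. *Alp4* was at 225, 217 and 228 CPM against 165, 145 and 145 CPM (log2 fold change 0.56, standard error 0.06, adjusted p = 2.99e-14), and *Uro*, the urate oxidase, was at 45.99, 43.2 and 62.6 CPM against 24.6, 30.3 and 31.8 CPM (0.81, standard error 0.14, adjusted p = 3.16e-06). The phosphate transporter *NaPi-T* and the organic anion transporters *Oatp58Dc* and *Oatp58Db* rose by 0.58, 0.58 and 0.56. For each of these 5 genes the genotypes did not overlap.

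Some genes of amino acid and purine metabolism were higher. Among 45 genes of amino acid metabolism 9 were higher (20%, against 9.8% over all genes tested) and 2 lower (4.44%, against 4.41%). The median was 0.07, and with any 1 library left out none was lower. *CG8745*, of the aminotransferase family, was at 304, 290 and 327 CPM against 126, 89.6 and 146 CPM (log2 fold change 1.34, standard error 0.14, adjusted p = 4.38e-17), and the genotypes did not overlap. *Hn*, *Hpd* and *hgo*, enzymes of phenylalanine and tyrosine breakdown, rose by 0.47 (adjusted p = 1.18e-08), 0.75 (adjusted p = 6.56e-11) and 1.08 (adjusted p = 5.2e-10), while *Faa*, *GstZ1* and *GstZ2* of the same list had log2 fold changes of 0.24, 0.02 and 0.47 that did not pass. *Gnmt*, which consumes S-adenosylmethionine, rose by 1.12 (adjusted p = 0.0004). Of 24 one-carbon and purine genes 7 were higher (29.2%) and 1 lower (4.17%). Among the higher ones were the abundant *pug* (0.55) and *Paics* (0.54), and *Paics* was at 358, 362 and 391 CPM against 274, 237 and 255 CPM.

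Some genes of the eye and nervous system were higher by small amounts. Of 31 photoreceptor genes 11 were higher and 1 lower (median 0.19), and of 30 neuronal genes 6 were higher and none lower (median 0.19). *ninaE*, the major rhodopsin, was at 1382, 1409.9 and 1399.8 CPM against 1223, 1049 and 1237 CPM (log2 fold change 0.26, standard error 0.06, adjusted p = 0.00719), and *Rh6* rose by 0.40. *ninaD*, a scavenger receptor for carotenoids in the photoreceptor list, rose by 1.34 (adjusted p = 5.43e-06), and whether its RNA came from the eye was not tested. *Rh5*, another rhodopsin of inner photoreceptor cells, went the other way, at 10.3, 9.29 and 10.2 CPM against 17.8, 15.3 and 17.4 CPM (−0.77, standard error 0.09, adjusted p = 5.11e-10). *Snap25*, *nSyb*, *Gad1* and *Sh* rose by 0.45, 0.37, 0.36 and 0.30, whereas the pan-neuronal marker *elav* had a log2 fold change of 0.19 that did not pass (adjusted p = 0.362). These small rises leaned on 1 library: without control replicate 2, the lowest control in *ninaE*, 3 photoreceptor and 1 neuronal gene were called higher, and the calls of *ninaE*, *Snap25*, *Gad1* and *Sh* were lost.

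Of 26 muscle genes 6 were higher (23.1%, against 9.8% over all genes tested) and none lower, with a median of 0.09. Without control replicate 2 the count was 2. *TpnC4*, a muscle troponin C, was at 3.80, 2.76 and 3.42 CPM against 1.37, 1.70 and 1.19 CPM (log2 fold change 1.21, standard error 0.20, adjusted p = 1.93e-06). Among peptide hormones *Ilp6*, the insulin-like peptide of the fat body, was at 24.2, 24.9 and 30.1 CPM against 14.99, 13.3 and 18.7 CPM (0.76, standard error 0.13, adjusted p = 3.66e-06). *Dsk*, a satiety peptide, rose by 0.76 (adjusted p = 2.73e-05), and 5 of 36 peptide and hormone genes were higher with 1 lower (13.9% and 2.78%, near the 9.8% and 4.41% over all genes tested). Odorant-binding proteins had 9 of 27 higher and 2 lower, with *Obp83a* and *Obp83b* up by 0.82 and 0.87 and *Obp56h* down by 1.42 (adjusted p = 0.00524) from 0.896, 0.882 and 1.01 CPM in controls to 0.395, 0.116 and 0.545 CPM, a call lost without *bmm* overexpression replicate 2. Without control replicate 2 the count of higher odorant-binding proteins was 4.

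Ovary and germline genes were lower. Of 55 germline genes 16 were lower and 1 higher, with a median of −0.13. *yl*, the yolk receptor of the oocyte, was at 1779, 1906 and 1926 CPM against 2308, 2274 and 2335 CPM (log2 fold change −0.30, standard error 0.05, adjusted p = 1.88e-05). Maternal genes of axis and end formation fell by similar small amounts, *osk* by 0.24 (adjusted p = 0.00456), *bcd* by 0.25 (adjusted p = 0.00921) and *fs(1)N* by 0.24 (adjusted p = 0.00814), calls lost without *bmm* overexpression replicate 2 for *osk*, without *bmm* overexpression replicate 1 or 3 or control 2 or 3 for *bcd*, and without *bmm* overexpression replicate 2 or control 1 or 2 for *fs(1)N*. *tral*, a translational regulator in nurse cells and oocyte, was at 2527, 2732 and 2739 CPM against 3018, 3075 and 3072 CPM (−0.20, standard error 0.05, adjusted p = 0.0136), a call lost in 8 of the 17 alternatives, among them those without *bmm* overexpression replicate 1 or any single control. The single higher member was *tor*, the maternal receptor tyrosine kinase of terminal patterning, at 152, 148 and 148 CPM against 82.7, 80.8 and 86.3 CPM (0.85, standard error 0.04, adjusted p = 5.33e-46). *tor* kept its call in all 17 alternatives. The count of lower members did not: with any 1 library left out between 4 and 9 members were lower, and with the dispersion estimated over all 12 libraries 1 was.

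Eggshell genes had 3 of 22 lower (13.6%, against 4.41% over all genes tested) and none higher (median −0.12). *Vm26Ab*, a vitelline membrane gene, was at 389, 419 and 369 CPM against 651, 524 and 544 CPM (log2 fold change −0.54, standard error 0.08, adjusted p = 8.06e-08), *yellow-g2* fell by 0.40 (adjusted p = 8.15e-06) and *Vm26Aa* by 0.30 (adjusted p = 0.0144). The summed eggshell level ranged from 19768 to 25742 CPM and overlapped the controls, at 23578 to 27448 CPM. Without *bmm* overexpression replicate 1 or 3 or control 1 the *Vm26Aa* call was lost. Yolk protein genes, which are expressed in the fat body and in follicle cells, did not pass. *Yp1* was at 16677, 17597 and 16977 CPM against 16574, 14877 and 16309 CPM (0.10, adjusted p = 0.328) and *Yp3* at 8763, 9749 and 9201 CPM against 11738, 9646 and 10635 CPM (−0.21, adjusted p = 0.073).

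DNA replication genes, many of them supplied to the egg by the ovary, had 11 of 40 lower and 1 higher (median −0.15). *Mcm2*, of the replicative helicase, was at 178, 189 and 188 CPM against 222, 215 and 219 CPM (log2 fold change −0.24, standard error 0.04, adjusted p = 0.000233), and *DNApol-alpha60*, of the primase, fell by 0.25 (adjusted p = 0.00324). The exception was *PCNA2*, a diverged copy of the sliding clamp, up by 0.87 (adjusted p = 0.00125). Cell division genes had 5 of 39 lower and none higher, with all 39 fold changes under 0 and a median of −0.13, for example *Ndc80* of the kinetochore with −0.29 (adjusted p = 0.00306) and *CycE* with −0.27 (adjusted p = 0.00469), a call lost without *bmm* overexpression replicate 1 or control 2. With the replicate number as a block, 22 replication and 19 division genes were lower, while leaving out 1 library left between 4 and 8 of the first and between 1 and 5 of the second, and the dispersion over all 12 libraries left 1 and 0.

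Some genes of protein synthesis were lower. Of 18 aminoacyl tRNA synthetases, which charge tRNAs with amino acids, 7 were lower and every fold change was under 0 (median −0.14). *LeuRS* was at 198, 181 and 179 CPM against 238, 221 and 208 CPM (log2 fold change −0.25, standard error 0.06, adjusted p = 0.00447) and *TrpRS* at 68.4, 71.7 and 71.0 CPM against 83.98, 85.3 and 81.7 CPM (−0.25, standard error 0.04, adjusted p = 0.000946). The *LeuRS* call was lost without control replicate 1. Of 43 ribosome biogenesis genes 10 were lower and 1 higher (median −0.14), with *Fib*, the fibrillarin of the nucleolus, at −0.18, a call lost without *bmm* overexpression replicate 1 or 2 or control 1 or 3. Of 74 mitochondrial ribosomal proteins 8 were lower and none higher (median −0.13), with *mRpL15* at −0.28 (adjusted p = 0.00212). Cytosolic ribosomal proteins differed from both: 6 of 86 were lower (6.98%, against 4.41% over all genes tested), but the median was 0.01. Their sum was 108526 to 111149 CPM against 108400 to 111543 CPM. The lower ones included *RpL22* with −0.43 (adjusted p = 2.27e-05), *sta* with −0.18 and *RpLP0* with −0.17. The calls of *sta* and *RpLP0* were lost without 5 of the 6 single libraries, all but *bmm* overexpression replicate 2. The block raised the 3 lists of synthetases, biogenesis and mitochondrial ribosomal proteins to 10, 23 and 13 lower members, single left-out libraries brought them to between 1 and 7, 0 and 8, and 1 and 4, and the dispersion over all 12 libraries to 1, 1 and 3.

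Few proteostasis genes beyond the *Hsp70* copies passed the test. None of 27 chaperones of the endoplasmic reticulum passed in either direction (median −0.04), nor did any of 34 proteasome genes (median −0.09). With the replicate number as a block 2 of these chaperones, 7 proteasome genes and 3 of the other heat shock genes were lower. Among the 17 other heat shock genes 3 were higher: *l(2)efl*, a small heat shock protein gene, with 0.51 (adjusted p = 4.76e-07), *stv*, a co-chaperone gene, with 0.31 and *lncRNA:Hsromega* with 0.24, of which *stv* was lost without control 2 and *lncRNA:Hsromega* without *bmm* overexpression replicate 1, control 2 or control 3. *Hsp60A*, of mitochondrial protein folding, fell by 0.17 (adjusted p = 0.0143), a call lost without any of *bmm* overexpression replicates 2 and 3 and controls 1 and 2. Summed levels of these lists were nonetheless lower in every *bmm* overexpression library. The other heat shock genes summed to 10328 to 10654 CPM against 11139 to 11652 CPM (ratio 0.92, median log2 fold change 0.01). The ratio was 0.95 for chaperones of the endoplasmic reticulum, and 0.94 for the proteasome and for mitochondrial protein quality.

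**Figure D4:**
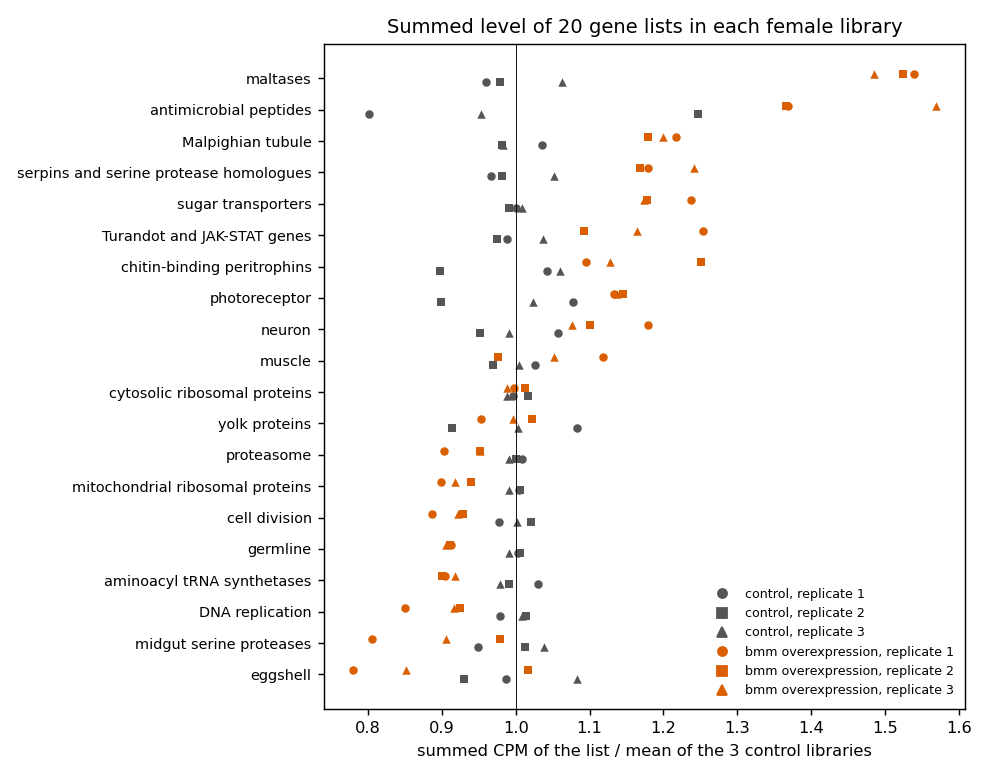
Summed CPM of 20 gene lists in each female library, divided by the mean of the 3 control libraries, with marker shapes for replicates. Maltases, antimicrobial peptides, tubule, sugar transporter, serpin, Turandot, peritrophin, photoreceptor and neuron lists lie to the right of every control, germline, cell division, DNA replication, tRNA synthetase, mitochondrial ribosomal and proteasome lists to the left, and the other 5 overlap.

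Summed over each list, 23 of the 63 lists were higher in every *bmm* overexpression library than in every control, 14 were lower in every one and 26 overlapped. Among single genes tested, 17.8% were higher and 18.5% lower in this way. The lists were chosen with earlier results of these data known, so these counts are a description. The germline sum was 17029 to 17152 CPM against 18636 to 18915 CPM, a ratio of 0.91, and the tRNA synthetase sum 3077 to 3138 CPM against 3345 to 3522 CPM, also 0.91. The maltase sum was 1109.97 to 1150.2 CPM against 717 to 794 CPM, a ratio of 1.52. Tubule genes summed to 926 to 956 CPM against 772 to 814 CPM (ratio 1.20), photoreceptor genes to 3424 to 3461 CPM against 2718 to 3256 CPM (1.14) and neuronal genes to 862 to 945 CPM against 762 to 847 CPM (1.12). Germline sums were thus lower and maltase, tubule, photoreceptor and neuronal sums higher in the same libraries, and CPM are shares of a library, so whether the ovary gave less RNA or other tissues more cannot be told apart. Most of the called genes were in none of the 63 lists, 748 of 1028 higher and 350 of 463 lower.

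The largest falls were of genes at low levels. *Oseg5*, an intraflagellar transport gene of ciliated neurons, was at 0.445, 0.726 and 0.636 CPM against 6.81, 6.58 and 6.58 CPM in controls, 11.1 times lower on average (log2 fold change −3.41, standard error 0.18, adjusted p = 6.29e-62). *CG17470* was at 0.593, 0.697 and 0.757 CPM against 5.20, 4.51 and 4.77 CPM (−2.79, standard error 0.18, adjusted p = 3.36e-37), and its neighbour *phr6-4*, a photolyase that repairs ultraviolet damage of DNA, at 6.37, 4.705 and 4.64 CPM against 17.6, 15.2 and 15.8 CPM (−1.65, standard error 0.13, adjusted p = 2.95e-27). The libraries of each genotype lay close together and the ranges far apart. *CG31832* fell by 2.56 and *CG15254* by 2.37 on the log2 scale, from between 3.12 and 4.01 CPM in controls to between 0.296 and 1.24 CPM. *CG34215*, the highest of the group, was at 10.7, 8.97 and 12.0 CPM against 26.8, 25.9 and 26.2 CPM (−1.32, standard error 0.10, adjusted p = 1.66e-29). *CG8664* fell by 1.44, *lncRNA:CR44618* by 1.43, *CG32751* by 1.34, *CG13947* by 1.23, *CG4830* by 1.20 and *SmydA-3* by 1.19, none of them over 12.1 CPM in any library. The *CG8664* call was lost without control 2 and that of *lncRNA:CR44618* without *bmm* overexpression replicate 1.

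**Figure D5:**
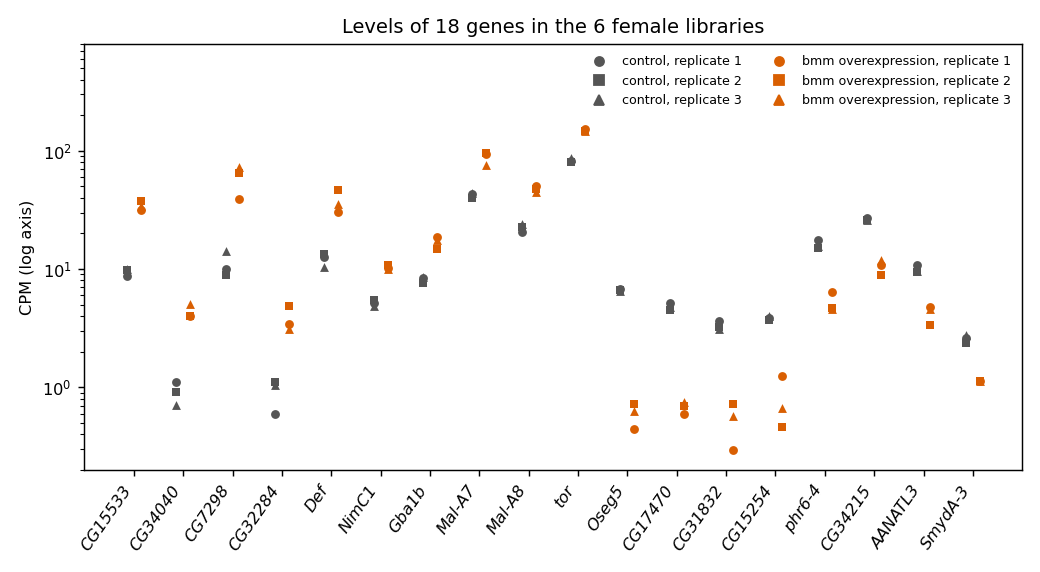
Level (CPM, log axis) of 10 higher genes (left) and 8 lower genes (right) in each female library, with marker shapes for replicates. The genotypes do not overlap for any of them, and the lower genes *Oseg5*, *CG17470*, *CG31832* and *CG15254* drop from between 3.12 and 6.81 CPM in controls to between 0.296 and 1.24 CPM.

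Of the 20 lower genes 11 lay on chromosome arm 2L, which held 1858 of the tested genes, and 5 lay between positions 20024975 and 22214376 of 2L (BDGP6.54 annotation): *AANATL3*, *CG17470*, *phr6-4*, *Oseg5* and *Ir40a*. *CG17470* (20642306 to 20643244) and *phr6-4* (20643351 to 20645791) are 106 bases apart, and *Oseg5* lies at 20832849 to 20835840. *AANATL3* and *Ir40a*, which fell by 1.24 and 1.28, set the ends of this stretch, so its count of lower genes follows from that choice and is a description. The stretch held 138 tested genes, of which *Ugt37A1* and *CG34136*, named after their values were seen, were higher past both thresholds, the *Ugt37A1* call being lost without *bmm* overexpression replicate 3 or control 2 or 3. By the adjusted p alone 16 of the 138 were lower and 15 higher, and their median log2 fold change was −0.04. Elsewhere 446 of 10313 genes were lower and 1008 higher, with a median of −0.01. Over all genes tested 4.41% were lower and 9.8% higher. The call of *Ir40a* was lost without *bmm* overexpression replicate 2 or 3. The position of *UAS-bmm* in the genome is not given in the sources used here, and an effect of sequence differences linked to the transgene cannot be told apart from an effect of *bmm*. Of the higher genes 27 lay on 2L, 30 on 2R, 29 on 3L, 31 on 3R and 6 on the X, where 0.342% of the tested genes were higher past both thresholds against 1.19% to 1.45% on the 4 large autosomal arms.

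Several higher genes were close neighbours, named here for their position after their values were seen. Within 10 kb of each other lay *TotA* and *TotC*, *IM2* and *CG16836* (log2 fold change 1.03 for both), *LysX* and *CG32335*, and *Muc55B* and *CG10912*, besides the maltase, *Alp*, *Npc2* and *Ugt37* pairs above. *CG14499* lies inside the span of *CG33958*, which was also higher, and whether the counting separated the strands is not given in the sources used here, so reads of this pair may be shared.

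A few abundant genes changed by small amounts outside the groups above. *CG46385* fell from 699, 709 and 711 CPM in controls to 503, 508 and 498 CPM (log2 fold change −0.49, standard error 0.04, adjusted p = 2.04e-18), with a narrow spread in each genotype. *CG10911* was at 534, 503 and 709.9 CPM against 291, 320 and 416 CPM (0.77, standard error 0.15, adjusted p = 2.27e-05), again with replicate 3 the highest of each genotype. The noncoding RNA *lncRNA:CR42862* was at 1880, 1828 and 1806 CPM against 1624, 1552 and 1638 CPM (0.20, adjusted p = 0.00871), and its call was lost without control replicate 2. The mitochondrial transcript *mt:ATPase6* rose by 0.25 (adjusted p = 0.0255), a call lost without *bmm* overexpression replicate 1 or 3 or control 2 or 3.

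The response of the named genes was set beside that of males. Of the 50 genes named for the size of their change in fold or in level, 14 differed between the sexes past an adjusted p of 0.05 for the interaction of genotype and sex (edgeR's quasi-likelihood test over 12 libraries). Over all 13988 genes tested 2.91% passed. The 50 were picked by their change in the same female libraries. That choice favours a weaker change in males, so the 14 are a description and cannot be weighed against the 2.91%. *CG15533*, which rose by 1.86 in females, had a log2 fold change of −0.52 in males, a difference of −2.38 (standard error 0.17, adjusted p = 6.77e-05), and *CG34040*, with 2.26 in females, had −0.67 in males, a difference of −2.94 (adjusted p = 0.000653). The falling neighbours *CG17470* and *phr6-4* had log2 fold changes of −0.35 and 0.27 in males, with adjusted p of 1.2e-05 and 0.00233 for the difference. For *phu* (2.86 against 1.90) the difference did not pass (adjusted p = 0.667). Leaving out single libraries brought the count of 14 to between 7 and 15.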

How the data were processed

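Stranded mRNA libraries, 12 in all and 3 per group, were sequenced from whole flies of both sexes and both genotypes. The authors aligned trimmed reads to BDGP6.28 with HISAT2, removed alignments with a mapping quality under 60 and counted reads per gene with featureCounts. Versions and the strand setting of the counting are not given in the sources used here, so overlapping genes may share reads. They deposited whole-number counts for 17807 gene symbols and, as a signal, counts scaled by 1 factor per library (CPM) for 14246 symbols.

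The 6 female libraries were filtered with filterByExpr, normalized by TMM and compared by edgeR's exact test (edgeR 4.0.16, R 4.3.3) with Benjamini-Hochberg adjustment. Standard errors came from the quasi-likelihood fit. Levels are CPM computed over the TMM-scaled library sizes of these 6 libraries, except for male levels, which are the deposited CPM. Whether the sexes differed in their response was tested as an interaction term in edgeR's quasi-likelihood fit over 12 libraries. No replicates differed by as little as sampling noise. Since replicates are pools of flies whose separate rearing is not stated, the p-values measure the spread between these libraries, and intervals and limits of detection cover counting error only. Deviations from the group means correlated between libraries of the same replicate number (0.25, 0.16 and 0.33 across genes) and not between others (−0.22 to −0.04). No label states a pairing, and the numbers were taken to pair the samples in the block fit only.

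Genes named are the 15 largest rises and falls past both thresholds without overlap, the 10 largest gains and losses in deposited CPM past the adjusted p without overlap, and up to 5 called members per list, of which not all are reported here, besides those said to be chosen after their values were seen. The 63 gene lists and the members were chosen with earlier results of these data known. After values were seen, genes wrongly caught by the eggshell pattern were removed (*Phae1* and *Phae2* went to the midgut proteases), and symbols were matched through RefSeq synonyms. Of the 17807 symbols, 17742 matched a RefSeq record by symbol or synonym. Positions are from the BDGP6.54 annotation, by symbol, for 10458 of the genes tested. Alternatives were the quasi-likelihood test, DESeq2 1.42.0, limma-trend (limma 3.58.1) on log2 of the deposited CPM plus a pseudocount of 1 or 0.1, other size factors, no filter or a filter at 5 CPM, the dispersion over 12 libraries, the replicate block and each library left out. The exact and quasi-likelihood tests were tested on simulated data.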

Additional observations from a re-analysis of the deposited data

Results flagged for a closer look

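For 14 of the 50 ranked genes the log2 fold change differed between males and females, by the interaction term of edgeR's quasi-likelihood fit. The differences, male minus female, are given here. The genes were ranked by their change in the same female libraries, which favours a weaker change in males. Genes that rose in females had a lower log2 fold change in males: *CG7298* differed by −4.05, *CG34040* by −2.94, *CG17104* by −2.91, *CG15533* by −2.38, *Muc55B* by −1.86, *CG11425* by −1.51 and *CG10911* by −1.08. Genes that fell in females had a higher log2 fold change in males: *Oseg5* differed by 2.53, *CG17470* by 2.44, *phr6-4* by 1.91 and *CG46385* by 0.86.

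*yl*, *Vm26Aa* and *Vm26Ab*, which are expressed in the ovary, differed by −4.04, −3.90 and −3.95. In control males 1, 2 and 3 the deposited CPM of *yl* was 154, 35.4 and 14.5, that of *Vm26Aa* 74.6, 20.03 and 9.78 and that of *Vm26Ab* 20.8, 5.88 and 2.59. In *bmm* overexpression males the values of *yl* were 5.01, 2.90 and 2.73, those of *Vm26Aa* 2.99, 1.45 and 1.59 and those of *Vm26Ab* 0.874, 0.242 and 0.293. RNA of these 3 genes was thus measured in every control male library, most of it in replicate 1, and its part in these differences was not tested. Whether these 3 differences hold any response of males to *bmm* overexpression was not tested either.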

How the results depend on the processing

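Against 124 higher and 20 lower genes past both thresholds, DESeq2 gave 78 and 13, a filter at a mean of 5 CPM gave 57 and 5, and limma-trend with a pseudocount of 1 gave 46 and 8. The quasi-likelihood test gave 95 and 15 past both thresholds, and 840 and 464 by the adjusted p alone. Of the 340 named genes, 58 did not pass it. Among these were *TotA*, *TotC*, *Obp56h*, *LysX*, *mag*, *Vago* and *lncRNA:CR44618*, so their calls were not lost only with libraries left out. By the adjusted p alone, against 1024 higher and 463 lower genes, limma-trend gave 659 higher with a pseudocount of 1 and 662 with 0.1, and the count of lower genes was 292 with library size only, 303 with the 5 CPM filter, 124 with the dispersion over 12 libraries, 948 with the replicate block and 157 without replicate 3 of both groups, an alternative chosen after seeing the data. With single libraries left out the counts ranged from 90 to 162 higher and 16 to 26 lower past both thresholds, and from 640 to 937 and 150 to 270 by the adjusted p alone. The count of 14 differences between the sexes ranged from 7 to 15 and was 23 with the replicate block.

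None of 340 named genes changed direction in the 17 alternatives, with 4607 values on the same side of the threshold and 1029 no longer past it. Of the list medians, only those within 0.1 of 0 changed sign. Of the 50 ranked genes 31 kept their call in every alternative that tested them. The causes were not tested. In *bmm* overexpression replicate 1, the shallowest library, 3 counts stand for 0.148 CPM, which limits what can be said of genes under 1 CPM.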

Other observations

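Several smaller groups were not described above. Among 14 clock genes 3 were higher, *cwo*, *cry* and *tim*, with log2 fold changes of 0.22, 0.20 and 0.18, and 1 was lower, *dco* with −0.17, by edgeR's exact test. Those shares are 21.4% and 7.14%, against 9.8% and 4.41% over all genes tested. None of the 3 higher calls remained without control replicate 2. Among 34 cuticle and chitin genes 7 were higher and 1 lower, with the chitin deacetylase genes *verm* and *serp* at 1.36 (adjusted p = 1.91e-06) and 0.75 (adjusted p = 0.00159). Of 11 mitochondrially encoded genes 2 were higher (18.2%), *mt:ND2* with 1.04 and *mt:ATPase6*, and all 11 fold changes were over 0 (median 0.19). Of 64 nuclear genes of oxidative phosphorylation 2 were higher (3.12%) and 3 lower (4.69%), with a median of −0.04.

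Among 21 insulin and TOR targets *Thor*, the translational repressor 4E-BP, rose by 0.37 (adjusted p = 0.00127), and the TOR complex gene *raptor* fell by 0.21 (adjusted p = 0.0122), a call lost without *bmm* overexpression replicate 1, control 2 or control 3. *lncRNA:roX1*, a noncoding RNA of male dosage compensation, was higher by 0.85 (adjusted p = 0.00134) in these female libraries. Of 9 proteases of the spermatheca and reproductive tract 4 were higher, and the largest value, 2.68 for *CG17234* (adjusted p = 0.0172), came with overlapping genotypes, at 3.01, 0.290 and 0.515 CPM against 0.358, 0.0945 and 0.122 CPM, and was not called without *bmm* overexpression replicate 1, control 2 or control 3. Among 10 fat body and blood proteins *fit* had a log2 fold change of −0.62 (adjusted p = 0.0348), with overlapping genotypes (73.2, 63.9 and 70.2 CPM against 152, 94.8 and 72.4 CPM), and the call was lost without any of 5 single libraries.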
